A study of Bos taurus with 12 samples.

Results

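A set of 9 bovine genes of antigen presentation was examined in the corpus luteum before and after prostaglandin F2α (PGF2α), taken by symbol from the 27270 genes in each table. B2M, TAP1, TAP2 and NLRC5 make up the class I group of 4 genes, and CD74, CIITA, BOLA-DRA, BOLA-DMA and BOLA-DMB the class II group of 5. All 9 had a single entry and all 9 passed the minimum of 10 counts in 4 of the 12 libraries, as did 14481 genes in all. In TPM, TAP1, a subunit of the peptide transporter, was lower at 12 h post-PGF2α in every cow than in any control cow. The same held for 34.9% of all genes tested. None of the 5 class II mRNAs passed edgeR's test at 12 h against control (0 at an unadjusted p under 0.05, 0 by DESeq2), and of these CD74 and BOLA-DMB were higher at 12 h than at 4 h, in calls that each held in 12 of 22 alternative settings. Of all genes tested, 48.9% passed at 12 h against control and 46.7% at 12 h against 4 h.

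Class I molecules display peptides from inside the cell to cytotoxic T cells and are made by nearly all nucleated cells, and B2M is their invariant light chain. The peptides are cut by the proteasome and carried into the endoplasmic reticulum by the paired transporter TAP1 and TAP2, while NLRC5 drives transcription of the class I genes. Class II molecules are made mainly by macrophages, dendritic cells and B cells, and in many species also by other cells under interferon gamma, and they show peptides from the endosome to helper T cells. CD74, the invariant chain, guards the class II groove on its way to the endosome, and BOLA-DRA encodes the alpha chain of the DR molecule. BOLA-DMA and BOLA-DMB form the DM molecule that loads the peptide, and CIITA is the master activator of class II transcription. In the cow the regressing corpus luteum takes in immune cells, and class II molecules have long been known in luteal tissue.

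The tissue was the whole corpus luteum of mixed breed beef cows at day 10 of the cycle, with 1 library per cow. Control cows received saline (n = 4), and the others received PGF2α by injection into muscle and lost the ovary 4 h (n = 4) or 12 h (n = 4) later. Because each cow gave 1 library at 1 time, cows are the replicates, no cow was followed over time, and both time points were set against the same 4 control cows. The labels do not say when the control ovaries were removed, so time after injection has no saline match.

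Depth was 10263310 to 22600213 counts per library in the controls, 15527149 to 22352909 at 4 h and 12471493 to 17880450 at 12 h. Mitochondrial genes held 8.95% ± 1.51 (SD, n = 4) of counts in the controls, 8.93% ± 1.012 at 4 h and 11.6% ± 3.04 at 12 h. The mean transcript length, weighted by abundance, was 1682 ± 41.9 bases, 1700 ± 54.2 bases and 1479 ± 69.7 bases in the same order (SD, n = 4 each). The part of either in the results was not tested beyond the alternatives given with the limits. Levels below are in TPM, the abundance of a transcript relative to all transcripts of its library, which is corrected for transcript length, so genes can be compared within a library. Changes are log2 fold changes from edgeR with their standard errors, fitted to the counts and scaled by trimmed means so that the median of all 14481 genes stood at 0.01 at 12 h. On the log2(TPM + 1) scale that median was -0.25 at 12 h against control and -0.21 at 12 h against 4 h, and TPM levels at 12 h are read with that shift in view. By edgeR, 3417 genes were higher and 3665 lower at 12 h against control, and by limma on log2(TPM + 1) 1509 were higher and 5631 lower. At 12 h against 4 h the same counts were 3252 and 3512 by edgeR and 1304 and 5194 by limma.

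In the ARS-UCD1.2 build, TAP2 (chromosome 23, 7138546 to 7169274), TAP1 (7177583 to 7186556), BOLA-DMB (7246582 to 7253835) and BOLA-DMA (7263678 to 7269167) lie close together on chromosome 23. PSMB8 (7173038 to 7176410) and PSMB9 (7186813 to 7193342), both immunoproteasome subunits, flank TAP1 on either side. BOLA-DRA stands apart on the same chromosome at 25837353 to 25843155. The remaining genes are on other chromosomes, B2M on 10 (103116503 to 103123174), CD74 on 7 (61747923 to 61755685), NLRC5 on 18 (25044850 to 25102326) and CIITA on 25 (9542154 to 9600304). The B2M count was not a whole number in any of the 12 cows, so some of its reads also matched another locus. The B2M entry also carries the NCBI gene identifier 783680, which RefSeq lists as LOC783680, while the RefSeq gene B2M has the identifier 280729. Every B2M level, ratio and call below is that of this entry, which may be annotated as a different locus.

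The mRNAs covered a wide range of abundance, and their order was nearly fixed. B2M was the most abundant in all 12 cows, with a mean of 1264 TPM, followed by CD74 with 784 TPM and BOLA-DRA with 167 TPM. The transporter subunits came next, TAP2 with 74.8 TPM and TAP1 with 62.2 TPM, then BOLA-DMB with 26.7 TPM and BOLA-DMA with 21.7 TPM. The transcriptional activators were the least abundant, NLRC5 with 6.22 TPM and CIITA with 4.07 TPM. CD74 exceeded BOLA-DRA in 12 of 12 cows, and BOLA-DMA exceeded NLRC5 in 12 of 12 cows, with ranges that did not meet in either case. TAP2 exceeded TAP1 in 10 of 12 cows but in only 2 of the 4 control cows, so their order in the controls was not separated from the spread. BOLA-DMB exceeded BOLA-DMA in 11 of 12 cows and NLRC5 exceeded CIITA in 11 of 12, with overlapping ranges. The plot of TPM by group shows the spread of each gene.

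**Figure D1:**
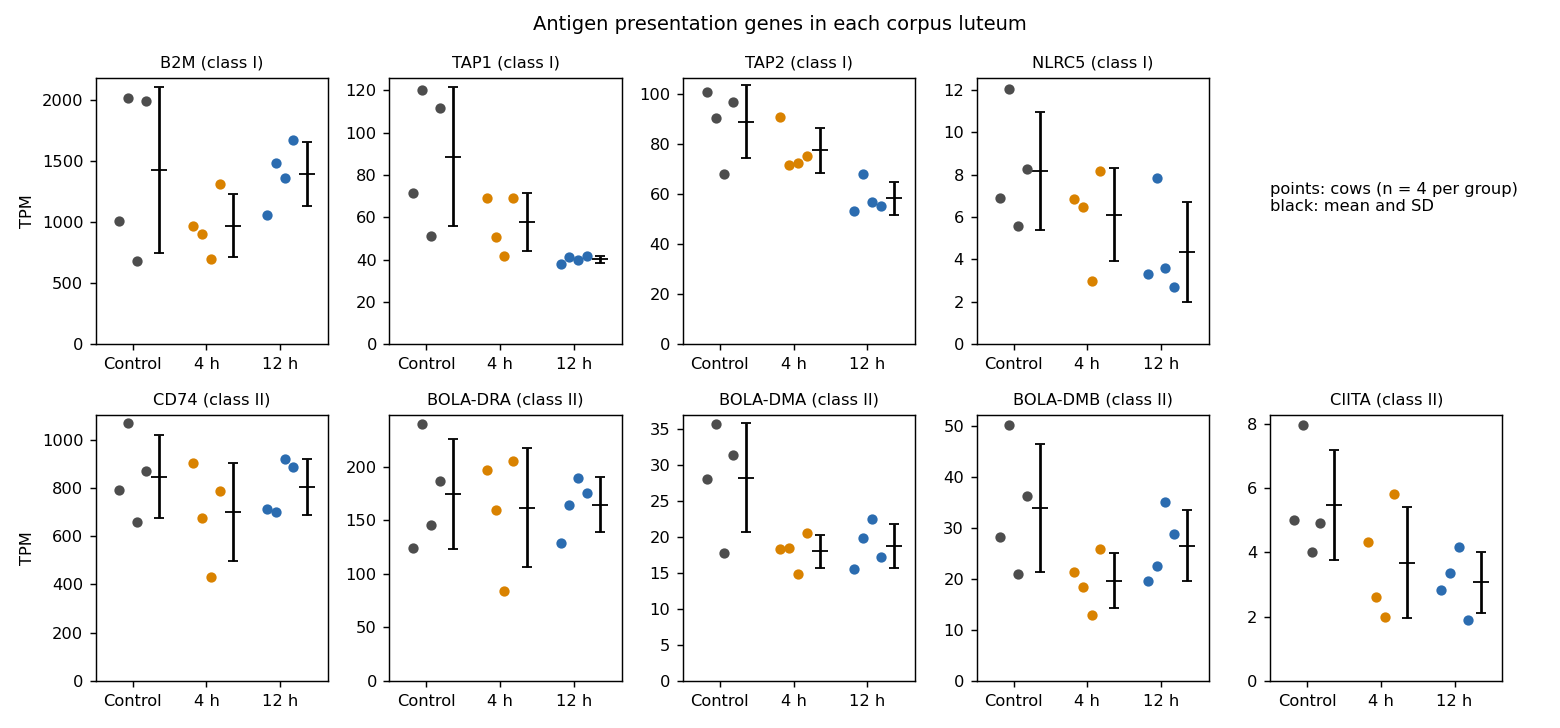
TPM of each of the 9 genes in control cows and in cows at 4 h and 12 h post-PGF2α, with 1 panel per gene on a linear axis from 0, 1 point per cow, and the group mean and SD in black (n = 4 each). TAP1 lies between 37.8 and 41.6 TPM in the 12 h cows, below every control cow, whereas the groups overlap for B2M and for all 5 class II genes.

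Most of the 9 mRNAs did not pass the test at 4 h. One of the 9 genes (11.1%) did, BOLA-DMA, which was lower, against 14.2% of all genes tested in either direction and 5.59% in the lower direction. The 9 log2 fold changes lay between -0.77 and -0.10 at 4 h, with a median of -0.46 for class I and -0.55 for class II beside -0.03 over all genes. In whole tissue, fewer cells of a type and less RNA per cell cannot be told apart. At 12 h against control, 2 of the 9 genes (22.2%) passed, TAP1 and TAP2, both lower, against 48.9% of all genes and 25.3% in the lower direction. At 12 h against 4 h, 3 of the 9 (33.3%) passed, B2M, CD74 and BOLA-DMB, all higher, against 46.7% of all genes and 22.5% in the higher direction. Each share was below that of all genes called in either direction, and with 9 genes no count was far from the background. Of the 6 calls, only that of TAP1 held under each of 22 alternative settings.

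TAP1 showed the most stable change. In the control cows its level was 71.6, 120, 51.3 and 112 TPM, at 4 h it was 69.1, 50.6, 41.8 and 69.2 TPM, and at 12 h it was 37.8, 41.3, 39.9 and 41.6 TPM. All 4 cows at 12 h were below all 4 control cows and below all 4 cows at 4 h in TPM, while the 4 h cows overlapped the lower control cows. In counts scaled by trimmed means, the 12 h cows stayed below the control cows but overlapped the 4 h cows. Of all genes tested, 34.9% were likewise lower with no overlap in TPM at 12 h against control and 30.3% at 12 h against 4 h. Such a share was not computed for the scaled counts. The 12 h cows also lay much closer to each other (SD 1.76 TPM) than the control cows did (SD 32.8 TPM). TAP1 fell at 12 h by 0.83 on the log2 scale (SE 0.23, edgeR adjusted p = 0.0105), and its adjusted p was 0.00177 to 0.0429 over the 22 alternatives. At 4 h the log2 difference was -0.60 (SE 0.23, edgeR adjusted p = 0.105), and it passed only without control cow7367 (-0.78, adjusted p = 0.0296). Between 4 h and 12 h the difference of -0.23 (SE 0.23) did not pass (edgeR adjusted p = 0.426).

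TAP2, the other transporter subunit, had the smaller difference at 12 h. Its level was 101, 90.3, 67.8 and 96.7 TPM in the controls, 90.6, 71.4, 72.1 and 75.1 TPM at 4 h, and 53.2, 67.7, 56.8 and 55.0 TPM at 12 h. In TPM the 12 h cows were all below the control cows, but only just, since cow6314 with 67.71 TPM met control cow7367 with 67.81 TPM. Such a fall without overlap in TPM was seen in 34.9% of all genes tested. In counts scaled by trimmed means, the 12 h cows overlapped both other groups. TAP2 fell at 12 h by 0.28 (SE 0.10, edgeR adjusted p = 0.0448), and the call held in 7 of 22 alternatives (adjusted p 0.00231 to 0.185). Leaving out any 1 of the cows other than control cow7367 ended it. At 4 h the difference was -0.16 (SE 0.10, edgeR adjusted p = 0.346). The 12 h cows were also all below the 4 h cows in TPM, as was the case for 30.3% of all genes tested. The difference was -0.12 (SE 0.10, edgeR adjusted p = 0.367), and it passed, lower, by limma on log2(TPM + 1) (-0.40, adjusted p = 0.0233).

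B2M, the light chain, varied widely among the control cows. Its level was 1008, 2018, 685 and 1989 TPM in the controls, 971, 899, 701 and 1316 TPM at 4 h, and 1056, 1483, 1365 and 1672 TPM at 12 h. The control cows spread over the whole range of both other groups, and 3 of the 4 cows at 12 h were above every cow at 4 h in TPM. In counts scaled by trimmed means, all 12 h cows were above all 4 h cows. The share of all genes that did so was not computed. Neither time point passed against control, with -0.52 (SE 0.31, edgeR adjusted p = 0.278) at 4 h and 0.28 (SE 0.31, edgeR adjusted p = 0.472) at 12 h. From 4 h to 12 h it rose by 0.80 (SE 0.31, edgeR adjusted p = 0.0474). That call held in 9 of 22 alternatives (adjusted p 0.0064 to 0.19), and among single cows it was lost without cow4291, cow5341, cow6455 or any 1 of the 12 h cows, with adjusted p up to 0.134.

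NLRC5, the class I activator, was scarce and rested on 120 to 780 counts per library. Its level was 6.89, 12.0, 5.56 and 8.25 TPM in the controls, 6.84, 6.49, 2.98 and 8.17 TPM at 4 h, and 3.29, 7.84, 3.59 and 2.70 TPM at 12 h. Of the 12 h cows, 3 were below every control cow, and cow6314 lay within the control range. The 12 h difference of -0.65 (SE 0.33) did not pass (edgeR adjusted p = 0.126). Without cow6314 it was -0.96 (adjusted p = 0.026), and by limma on log2(TPM + 1) it was -0.82 (adjusted p = 0.0476). Between 4 h and 12 h the difference was -0.25 (SE 0.33, edgeR adjusted p = 0.566), and it turned to 0.089 with transcript length as an offset. It passed without cow6455 and cow6314 (-0.82, edgeR adjusted p = 0.0238). Those were the 4 h cow with the lowest and the 12 h cow with the highest NLRC5 level. Leaving out both therefore makes the fall larger by construction, and this call adds no support. Cow6314 was also the 12 h cow with the lowest mitochondrial share (7.22%) and the longest mean transcript (1577 bases), and the part of either in its NLRC5 level was not tested.

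**Figure D2:**
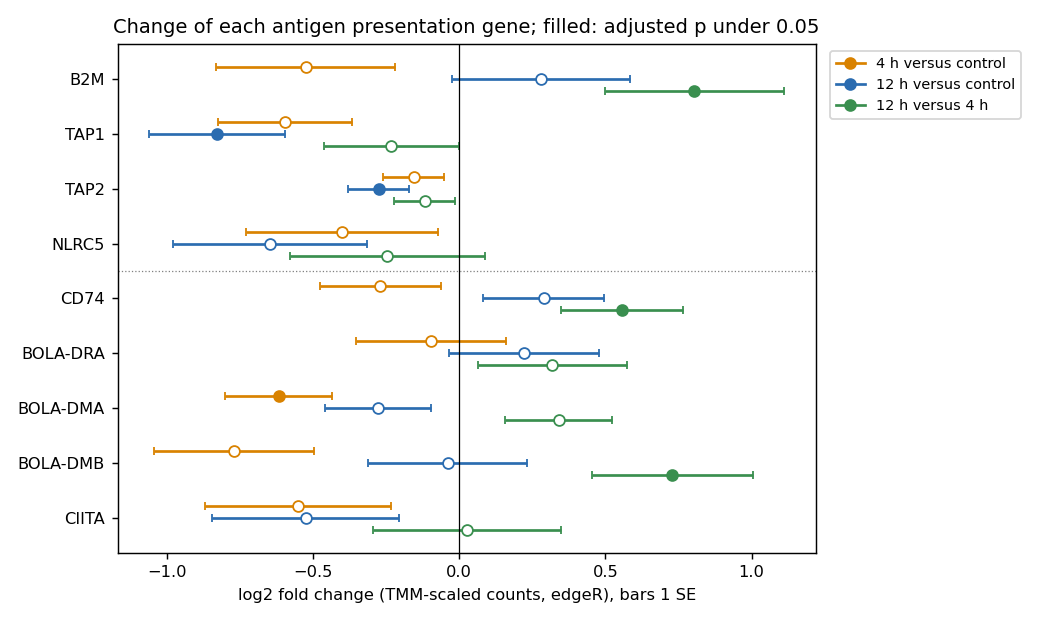
Log2 fold change of each of the 9 genes from edgeR on scaled counts, with bars of 1 standard error, for 4 h against control, 12 h against control and 12 h against 4 h, with 4 cows in each group. Filled symbols passed the adjusted p threshold of 0.05, namely BOLA-DMA at 4 h, TAP1 and TAP2 at 12 h, and B2M, CD74 and BOLA-DMB for 12 h against 4 h.

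Ratios between genes within a cow do not depend on how the libraries were scaled, and they were taken for TAP1 and genes of its pathway. The ratio of B2M to TAP1 in TPM was 13.4 to 17.8 in the controls, 14.0 to 19.0 at 4 h and 28.0 to 40.2 at 12 h. The ratio of PSMB8, an immunoproteasome subunit encoded beside TAP1, to TAP1 was 1.79 to 1.96 in the controls, 1.88 to 2.18 at 4 h and 3.92 to 4.27 at 12 h. Both ratios at 12 h were above every value in the other groups. How often other gene pairs do so was not computed. TAP1 alone was already lower without overlap in TPM at 12 h against control, as were 34.9% of all genes tested. The ratio of PSMB9 to TAP1 overlapped, with 1.96 to 2.36 in the controls, 1.83 to 2.77 at 4 h and 2.28 to 3.78 at 12 h. PSMB8 itself was 167 ± 62.6 TPM in the controls, 113 ± 22.7 TPM at 4 h and 164 ± 4.03 TPM at 12 h (SD, n = 4 each), a control level close to that at 12 h. The gap between the 12 h changes of PSMB8 and TAP1 was 1.11 on the log2 scale, and it was 0.90 to 1.15 over the 22 alternatives, lowest with transcript length as an offset. These ratios were examined after the levels were seen and are given without a test.

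**Figure D3:**
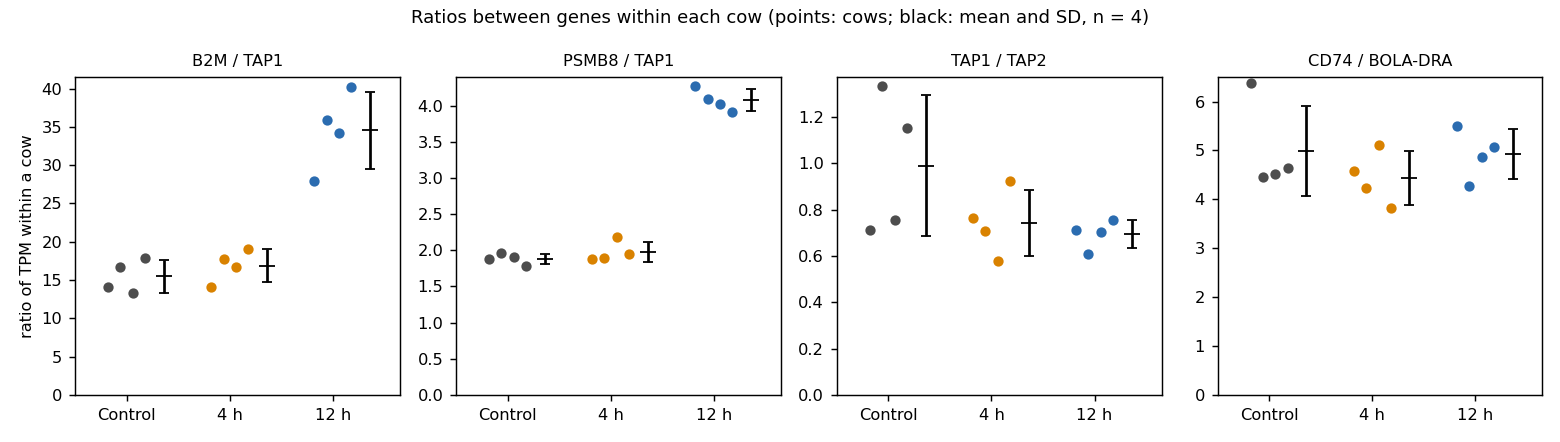
Ratios of TPM within each cow for B2M to TAP1, PSMB8 to TAP1, TAP1 to TAP2 and CD74 to BOLA-DRA, on linear axes from 0, with 1 point per cow and the mean and SD in black (n = 4 each). The ratios of B2M to TAP1 and of PSMB8 to TAP1 in the 12 h cows lie above all control and 4 h cows, while the ratio of CD74 to BOLA-DRA stays between 3.83 and 6.37 in all 12 cows. How often other gene pairs separate in this way was not computed.

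Among the class II genes, CD74 and BOLA-DRA were the most abundant. CD74 was at 793, 1070, 658 and 869 TPM in the controls, 905, 675, 429 and 788 TPM at 4 h, and 712, 699, 919 and 889 TPM at 12 h. The groups overlapped throughout, with cow6455 at 4 h the lowest of all cows. CD74 differed from control by -0.27 (SE 0.21, edgeR adjusted p = 0.424) at 4 h and by 0.29 (SE 0.21, edgeR adjusted p = 0.27) at 12 h, and the 12 h value turned to -0.06 on the log2(TPM + 1) scale. It was higher at 12 h than at 4 h by 0.56 (SE 0.21, edgeR adjusted p = 0.0436). That call held in 12 of 22 alternatives (adjusted p 0.0152 to 0.379), and it was lost without cow5341, cow6455, cow6456, cow5266, cow7382 or cow7475. On the log2(TPM + 1) scale it was lost as well, with an adjusted p of up to 0.379.

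BOLA-DRA, the DR alpha chain, showed no change that passed. Its level was 124, 240, 146 and 187 TPM in the controls, 197, 160, 83.9 and 206 TPM at 4 h, and 129, 164, 189 and 175 TPM at 12 h. The groups overlapped, with cow6455 the lowest of all cows and control cow6464 the highest. The log2 differences were -0.10 (SE 0.26, edgeR adjusted p = 0.842) at 4 h and 0.22 (SE 0.26, edgeR adjusted p = 0.497) at 12 h. The sign at 4 h turned without cow6464 (0.12) or without cow6455 (0.10), and at 12 h on the log2(TPM + 1) scale (-0.05).

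The DM chains had the lowest log2 differences of the class II genes at 4 h. BOLA-DMA was at 28.1, 35.7, 17.8 and 31.3 TPM in the controls, 18.3, 18.4, 14.9 and 20.5 TPM at 4 h, and 15.5, 19.8, 22.5 and 17.2 TPM at 12 h. Of the control cows, 3 were above every treated cow, and cow7367 lay within the range of the treated cows. BOLA-DMA fell at 4 h by 0.62 (SE 0.18, edgeR adjusted p = 0.0411), and the call held in 7 of 22 alternatives (adjusted p 0.00766 to 0.127). It was lost when any 1 cow other than cow7367 and cow7382 was left out. At 12 h the difference from control was -0.28 (SE 0.18, edgeR adjusted p = 0.225), which passed without cow7367 (-0.44, adjusted p = 0.0302) and by limma on log2(TPM + 1) (-0.53, adjusted p = 0.0332). Between 4 h and 12 h the difference of 0.34 (SE 0.18) did not pass (edgeR adjusted p = 0.145). In counts scaled by trimmed means all 12 h cows were above all 4 h cows, while in TPM they overlapped. The share of all genes higher without overlap in those counts was not computed.

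BOLA-DMB, its partner chain, was at 28.2, 50.3, 21.1 and 36.3 TPM in the controls, 21.4, 18.5, 13.0 and 25.8 TPM at 4 h, and 19.7, 22.5, 35.2 and 28.9 TPM at 12 h. At 4 h, 2 cows were below every control cow and the others lay in the lower part of the control range, and the 12 h cows overlapped both groups. The 4 h difference of -0.77 (SE 0.27) did not pass (edgeR adjusted p = 0.0818), though it did with DESeq2 (adjusted p = 0.0478) and without cow7367 (adjusted p = 0.049). At 12 h BOLA-DMB differed from control by -0.04 (SE 0.27, edgeR adjusted p = 0.915). That sign turned without cow6464 (0.27), cow7514 (0.017), cow5266 (0.038) or cow6314 (0.12). BOLA-DMB was higher at 12 h than at 4 h by 0.73 (SE 0.27, edgeR adjusted p = 0.0449). That call held in 12 of 22 alternatives (adjusted p 0.0203 to 0.217) and was lost without cow7514, cow4291, cow5341, cow6455, cow7382 or cow7475.

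CIITA, the class II activator, rested on 67 to 397 counts per library. Its level was 5.01, 7.96, 4.01 and 4.91 TPM in the controls, 4.31, 2.60, 1.99 and 5.82 TPM at 4 h, and 2.83, 3.36, 4.16 and 1.90 TPM at 12 h. The 12 h cows were below the controls except cow7382, which was just above cow7367. CIITA differed from control by -0.55 (SE 0.32, edgeR adjusted p = 0.275) at 4 h and by -0.53 (SE 0.32, edgeR adjusted p = 0.194) at 12 h, and by 0.03 (SE 0.32, edgeR adjusted p = 0.954) between the times. The ratio of CD74 to CIITA was 134 to 177 in the controls, 135 to 260 at 4 h and 208 to 468 at 12 h, so that all 12 h cows were above all control cows. This is given without a test, and how often other gene pairs do so was not computed. The ratio of 468 was that of cow7475, with 67 CIITA counts. The ratio of BOLA-DMB to BOLA-DMA was 1.005 to 1.41, 0.87 to 1.26 and 1.14 to 1.68 in the same order, with overlap.

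The 9 genes tended to be high or low together in single cows. Among the controls, cow6464 had the highest TPM of 8 of the 9 genes and cow7367 the lowest of 8. At 4 h, cow6455 was lowest for 8 of the 9 genes and cow6456 highest for 7, and at 12 h cow7382 was highest for 5. The map of levels by cow shows these cows as columns of high or low values. The sum of the 4 class I genes was 1611 ± 724 TPM in the controls, 1113 ± 272 TPM at 4 h and 1497 ± 263 TPM at 12 h (SD, n = 4 each). The sum of the 5 class II genes was 1090 ± 239, 902 ± 265 and 1017 ± 145 TPM. B2M made up 87.4%, 87.0% and 93.0% of the class I sum on average, and CD74 made up 78.0%, 77.6% and 79.1% of the class II sum.

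**Figure D4:**
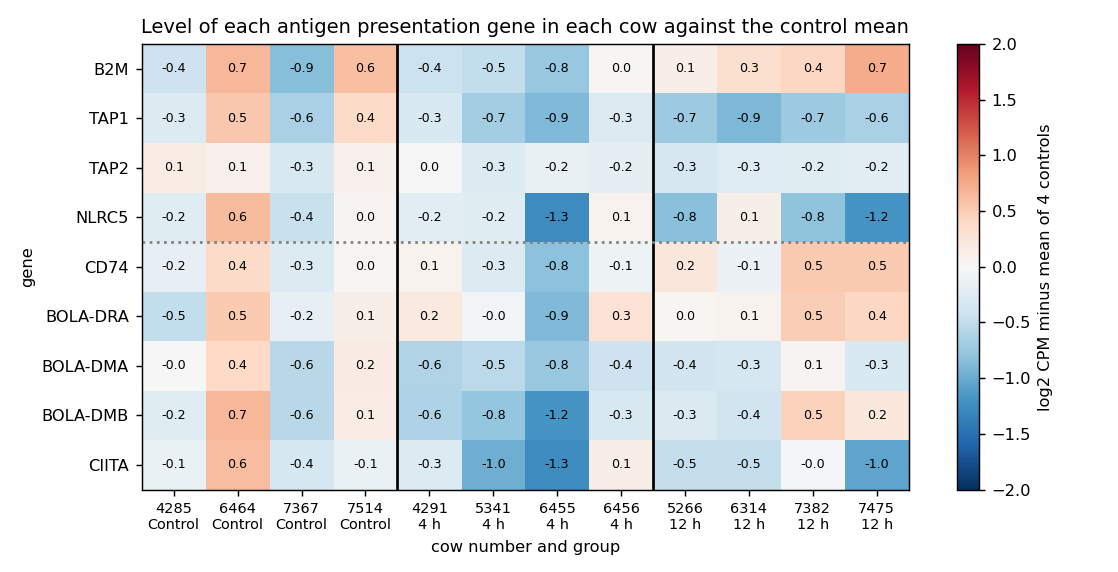
Level of each of the 9 genes in each of the 12 cows, as log2 CPM (counts scaled to library size) minus the gene's mean over the 4 control cows, from blue (lower) to red (higher). The median over the 9 genes is 0.54 in control cow6464, -0.44 in control cow7367 and -0.89 in cow6455 at 4 h.

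With the group means taken out, the genes were compared over the 12 cows as a description, since all points share libraries and composition. Pearson's r was 0.61 to 0.89 (median 0.69) over the 10 pairs of class II genes, 0.22 to 0.93 (median 0.54) over the 6 class I pairs and 0.15 to 0.84 (median 0.62) over the 20 pairs between classes. The pattern most like TAP1 among the genes tested that have a gene symbol was that of PSMB8 (r = 0.98), then B2M (0.93), MYCL (0.92), PLGRKT (0.91) and NOD1 (0.91). The patterns most like BOLA-DRA were those of CCR2 (0.96), a chemokine receptor of monocytes, ACTR6 (0.94), LYZ (0.92), which encodes lysozyme, CYFIP2 (0.92) and FMNL1 (0.91). Among the same genes with a symbol, CD74 came at rank 10 for BOLA-DRA (0.89) and BOLA-DMB at rank 30 (0.85).

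The other class I genes moved in both directions at 12 h. So did all 14481 genes tested, of which 48.9% passed at 12 h, 3417 as higher and 3665 as lower. At 4 h, 14.2% passed. Of the 10 genes listed for peptide loading, 4 rose and 4 fell at 12 h against control, but 0 rose and 6 fell on the log2(TPM + 1) scale. Those that fell at 12 h included SPPL2A (edgeR adjusted p = 0.0145), a protease that cuts CD74 and so belongs with class II. ERAP1, which trims peptides in the endoplasmic reticulum, fell by 0.58 (SE 0.15, edgeR adjusted p = 0.00719) at 12 h. HSPA5, a chaperone of the endoplasmic reticulum that is known for its rise in the unfolded protein response, rose at 4 h by 0.88 (SE 0.13, edgeR adjusted p = 0.000912), the only 1 of the 10 to pass at that time. CALR, the peptide loading chaperone, rose at 12 h by 0.40 (SE 0.10, edgeR adjusted p = 0.00426), but by 0.09 with no call on the log2(TPM + 1) scale. Of the 9 tested heavy chains and B2M partners, 2 rose and 2 fell at 12 h, and 0 rose and 2 fell on the log2(TPM + 1) scale, where FCGRT and CD1D lost their rise. The fall of HFE held in 8 of 22 alternatives. MR1, which presents vitamin metabolites, fell by 0.86 (SE 0.21, edgeR adjusted p = 0.00437), and CD1D, which presents lipids, rose by 0.69 (SE 0.19, edgeR adjusted p = 0.0108) though not on the log2(TPM + 1) scale.

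The classical class I heavy chains are near-identical copies, and reads may be split between their entries. The entry named BOLA ranged from 113 TPM in cow5341 to 1751 TPM and that named JSP.1 from 322 to 1999 TPM, so single entries are uncertain. BOLA was chosen for description after its values were seen. Of the 5 immunoproteasome genes, edgeR called 0 at 4 h (2 at an unadjusted p under 0.05, 0 by DESeq2) and 0 at 12 h against control (1 unadjusted, 1 by DESeq2). At 12 h against 4 h, 4 of the 5 rose by edgeR and 1 on the log2(TPM + 1) scale, where 22.5% of all genes rose by edgeR. They included PSMB8, with 0.82 (SE 0.22, edgeR adjusted p = 0.00991, and 0.0672 by limma on log2(TPM + 1)), and PSMB10, which rose on both scales, by 0.73 (SE 0.16, edgeR adjusted p = 0.00267).

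Several endosomal enzymes of the class II pathway were higher at 12 h, when 48.9% of all genes passed the test, 3417 of 14481 as higher. Of the 9 genes of class II processing, 6 rose and 0 fell at 12 h against control (6 in all at an unadjusted p under 0.05, 6 by DESeq2), and 4 rose and 1 fell on the log2(TPM + 1) scale. SPPL2A, which fell at 12 h, was not in this list but was counted with the peptide loading genes. IFI30, the thiol reductase that unfolds antigens, was 68.5 ± 7.23 TPM in the controls, 90.6 ± 8.75 TPM at 4 h and 164 ± 21.2 TPM at 12 h (SD, n = 4 each). It rose by 1.58 (SE 0.15, edgeR adjusted p = 1.17e-05). The proteases CTSH, LGMN and CTSB rose by 1.27, 1.10 and 1.04 at 12 h (edgeR adjusted p = 0.000156, 0.00165 and 0.00044), and CTSB also rose at 4 h by 0.73 (edgeR adjusted p = 0.0165, and 0.0501 without control cow7514). These proteases serve the lysosome of many cells as well as antigen processing.

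Of the 5 tested further class II chains, edgeR called 0 at 4 h (1 unadjusted, 0 by DESeq2) and 0 at 12 h against control (0 unadjusted, 0 by DESeq2). BOLA-DOB, a chain of the DM inhibitor DO, was higher at 12 h than at 4 h by 1.58 (SE 0.45, edgeR adjusted p = 0.0119), with means of 2.51 TPM in the controls, 1.27 TPM at 4 h and 3.02 TPM at 12 h. The 12 h mean rested largely on cow7382 with 6.06 TPM. The other 12 h cows had 1.88, 2.22 and 1.92 TPM, each below the control mean. It had only 8 to 36 counts per library at 4 h. Against 4 h the call held in 21 of 21 alternatives that fitted it (log2 differences 0.75 to 1.83). BOLA-DQA5 and BOLA-DQB were listed at 0 in control cow4285 and varied widely in the others, and as near-identical polymorphic copies they are uncertain.

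The regulators upstream showed both directions, beside 14.2% of all genes passing at 4 h and 48.9% at 12 h. Of the 7 factors of the class I and class II promoters, 1 fell at 4 h, and 2 rose and 2 fell at 12 h against control, with 0 rising and 3 falling on the log2(TPM + 1) scale. RFX5, the DNA-binding subunit of the complex on these promoters, had 10.4 ± 0.976 TPM in the controls, 7.49 ± 0.638 TPM at 4 h and 3.78 ± 0.824 TPM at 12 h (SD, n = 4 each). It fell by 0.48 (SE 0.12, edgeR adjusted p = 0.0174) at 4 h and by 1.15 (SE 0.12, edgeR adjusted p = 1.91e-05) at 12 h. The 4 h call was lost without cow6464, cow5341 or cow6456 (adjusted p = 0.0549, 0.0565 and 0.0542) and on the log2(TPM + 1) scale. CREB1, a further factor of the promoter, fell by 0.84 (SE 0.17, edgeR adjusted p = 0.00161) at 12 h. RFXANK, another subunit of the same complex, rose by 0.48 (SE 0.08, edgeR adjusted p = 0.000453) at 12 h, though not on the log2(TPM + 1) scale.

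Of 15 tested genes of interferon gamma signalling, 2 rose and 3 fell at 4 h, and 2 rose and 3 fell at 12 h. Over all genes tested, 14.2% passed at 4 h and 48.9% at 12 h. JAK2, a cytoplasmic kinase that acts at the receptor, fell by 0.84 (SE 0.17, edgeR adjusted p = 0.00125) at 12 h, whereas the receptor chain IFNGR2 rose by 0.74 (SE 0.10, edgeR adjusted p = 0.000109). IFNG itself was too scarce to test, with 0 to 11 counts per library. CD274, the ligand of the inhibitory receptor PD-1, fell at 12 h by 2.20 (SE 0.50, edgeR adjusted p = 0.00327). It was scarce, with 9 to 18 counts per library at 12 h (mean 0.87 TPM). The controls were widely spread, with 14 to 182 counts per library (1.54 to 9.51 TPM). CD83, a maturation marker of dendritic cells, rose at 4 h by 0.81 (SE 0.22, edgeR adjusted p = 0.0271), a call lost without cow4285, cow7514, cow5341 or cow6456 (adjusted p up to 0.0751).

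**Figure D5:**
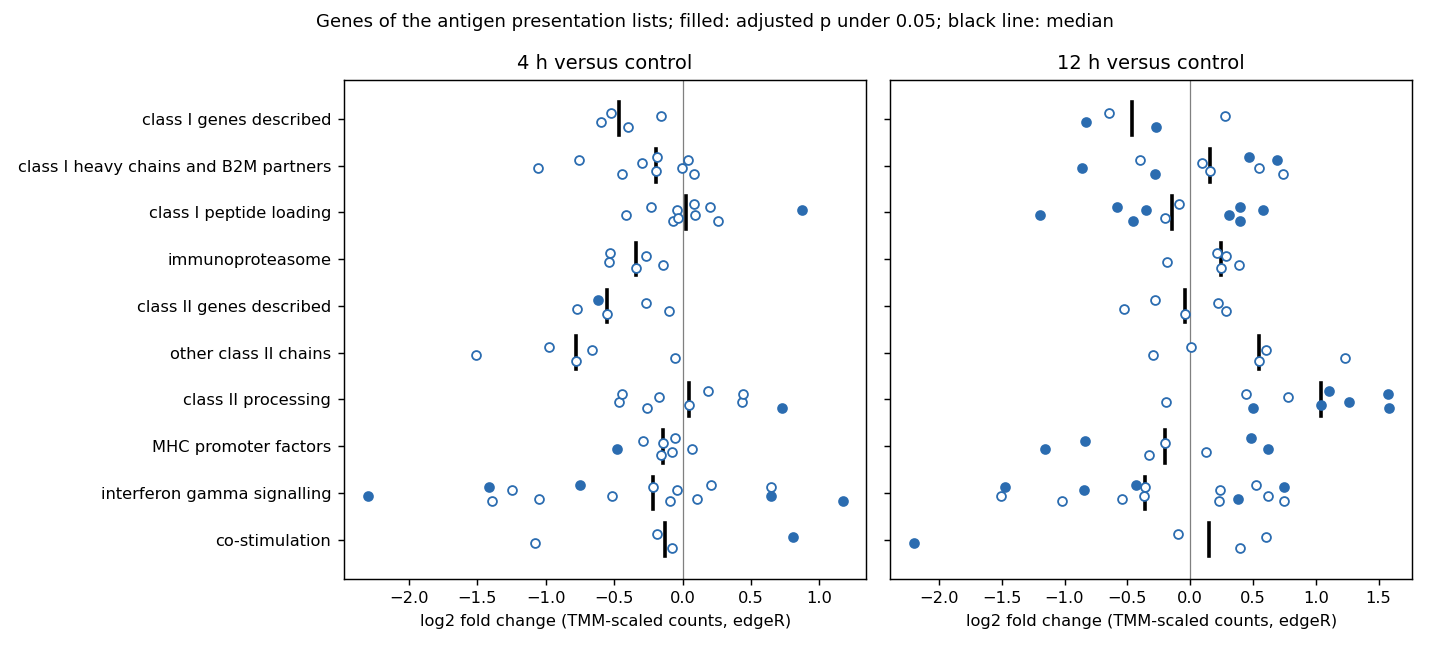
Log2 fold change from edgeR of every tested gene in the class I and class II groups and in 8 related gene lists, at 4 h (left) and 12 h (right) against control, with 1 point per gene, filled where the adjusted p was under 0.05, and a black line at the median of each list. The median of class II processing is 1.04 at 12 h, with 6 filled points above zero, and that of the 4 class I genes is -0.46.

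Markers of the cells that could carry these mRNAs moved too, and 48.9% of all genes passed at 12 h. Of 12 macrophage and monocyte markers, 1 rose at 4 h and 8 rose at 12 h (7 on the log2(TPM + 1) scale), and their summed level was 186 to 526 TPM in the controls, 228 to 442 TPM at 4 h and 452 to 721 TPM at 12 h. Of 10 dendritic cell markers, 2 rose and 1 fell at 12 h (0 and 1 on the log2(TPM + 1) scale), with sums of 37.4 to 45.6 TPM in the controls, 18.3 to 43.6 TPM at 4 h and 37.8 to 57.7 TPM at 12 h. Of 5 tested B cell markers, 2 rose at 12 h, with 1 by DESeq2 and 0 on the log2(TPM + 1) scale, and PAX5, a defining marker, had no more than 2 counts in any library. One library stood apart, cow7382, in which MS4A1 was at 13.8 TPM against 0.43, 0.59 and 1.15 TPM in the other 12 h cows, and without it 1 of the 5 rose. CD79A, CD79B and TNFRSF13C were likewise highest in cow7382 (8.22, 8.18 and 6.04 TPM). These markers were chosen for description after their values were seen, and not all listed markers rose. The mean of JCHAIN was lower at 12 h (10.968 TPM) than in the controls (13.505 TPM). The means of CR2 (5.5525 against 3.095 TPM) and BLK (0.6625 against 0.2325 TPM) were higher at 12 h. Cow7382 was also the cow with the highest 12 h TPM for each of the 5 class II genes, and the part of its B cell markers in those levels was not tested. Without it the calls of CD74 and BOLA-DMB at 12 h against 4 h were lost (0.45 with an adjusted p of 0.127 for CD74 and 0.53 with 0.157 for BOLA-DMB, both by edgeR). Of 11 tested T and NK cell markers, 2 fell at 4 h (1 on the log2(TPM + 1) scale) and 1 rose at 12 h (1 rose and 2 fell on that scale), with sums of 29.8 to 127 TPM in the controls, 25.8 to 39.6 TPM at 4 h and 46.6 to 57.7 TPM at 12 h. Of 8 tested neutrophil markers, 6 rose at 12 h (4 on the log2(TPM + 1) scale, 2 by edgeR without cow7382), with sums of 27.0 to 55.1 TPM in the controls, 55.3 to 161 TPM at 4 h and 107 to 276 TPM at 12 h. Of 12 endothelial markers, 2 rose and 3 fell at 4 h, and 3 rose and 2 fell at 12 h (0 and 2 on the log2(TPM + 1) scale). All 7 luteal steroidogenic markers fell at 12 h, from sums of 17772 to 26805 TPM in the controls to 3489 to 7143 TPM, so luteal mRNA was present in every library. The part of cell makeup in the changes of the 9 genes was not tested.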

How the data were processed

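Total RNA of 12 corpora lutea was sequenced, with 1 library per cow. Per the labels and the submitters' processing notes, the authors aligned reads with STAR 2.5 to ARS-UCD1.2 and quantified genes with RSEM 1.3. The deposited tables give expected counts, estimated by sharing reads that match several loci, and TPM, scaled by the authors to transcript length and a fixed sum per library. The authors' FPKM, scaled to transcript length and library size, served only as an alternative scale for ratios of means. Depth was 10263310 to 22600213 counts per library, and means carry SDs over cows.

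Expected counts were rounded to whole numbers. Genes with 10 or more counts in 4 or more libraries (14481 of 27270) entered edgeR 4.0.16 in R 4.3.3, with trimmed mean scaling, 1 quasi-likelihood fit over the 3 groups and no covariate. P-values were adjusted by Benjamini-Hochberg over all genes tested, with a threshold of 0.05. The fit was tested on simulated data. Alternatives were DESeq2 1.42.0, relative log expression scaling, a count minimum of 50 or none, the 2 compared groups alone, limma 3.58.1 on log2(TPM + 1) or log2(TPM + 0.1), no mitochondrially encoded genes, a transcript length offset (spline with 5 degrees of freedom), each cow left out, and cow6455 and cow6314 left out together. The lists comprised 8 for the pathway and 7 of cell markers. All genes of a list were counted, and up to 5 per list with the smallest p over the 3 comparisons could be named. BOLA, IFNG and the B cell markers were named outside this rule after their values were seen. The genes most like TAP1 and BOLA-DRA were the 5 with the highest Pearson's r over 12 cows after group means were removed from log2 CPM (prior count 2). Only tested genes with a gene symbol were ranked. The genes and lists were chosen with earlier results of these data known. Sequences were not analysed here. Results on some listed genes are not reported here.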

Additional observations from a re-analysis of the deposited data

Results flagged for a closer look

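The effects of PGF2α at 4 h and 12 h, taken against the same controls, differed between the time points for 3 of the 9 genes by the direct comparison of 12 h with 4 h in edgeR. The difference between the times on the log2 scale was 0.80 for B2M, 0.56 for CD74 and 0.73 for BOLA-DMB. Of all genes tested, 46.7% passed in that comparison, 22.5% as higher. The calls held in 9, 12 and 12 of 22 alternatives, and none of the 3 genes passed at either time against control. Over the 27 combinations of gene and group, no cow stood apart from the other 3 by Dixon's test at its 95% critical value, where about 1 in 20 would do so by chance.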

How the results depend on the processing

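Of the 6 calls among the 9 genes, only the fall of TAP1 at 12 h held under all 22 alternatives, and of 52 calls among the pathway genes named, 28 did. The number of the 9 genes called at 4 h was 2 with DESeq2 and 0 with no count minimum, with the 2 groups alone, by limma with either pseudocount and without cow6455 and cow6314, and it ranged from 0 to 3 with single cows left out. At 12 h it was 1 with the 2 groups alone, without mitochondrially encoded genes and with the length offset, 4 by limma with either pseudocount, and 1 to 3 with single cows left out. At 12 h against 4 h it was 0 with no count minimum, 1 with the length offset and 1 by limma with either pseudocount, which was TAP2 as lower while the 3 rises were lost, and 0 to 3 with single cows left out. Genes called with single cows left out numbered 1267 to 2174 at 4 h (1267 without cow7514, 1300 without cow5341, 1373 without cow7367), 6120 to 7196 at 12 h and 5829 to 6813 at 12 h against 4 h. The length offset moved the calls at 4 h from 1253 higher and 809 lower to 1108 higher and 1207 lower.

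Log2 fold changes that turned sign were small. BOLA-DRA at 4 h ranged from -0.23 to 0.12 with single cows left out and was 0.10 without cow6455 and cow6314. BOLA-DMB at 12 h ranged from -0.24 to 0.27 and was 0.065 without both cows. By limma with pseudocounts of 1 and 0.1, BOLA-DRA at 12 h was -0.0538 and -0.0539, CD74 at 12 h was -0.0645 and -0.0646, and CIITA at 12 h against 4 h was -0.16 and -0.19. CIITA in that comparison was -0.0068 with no count minimum, -0.17 without both cows and -0.18 to 0.33 with single cows left out, and NLRC5 was 0.089 with the length offset but -0.82 and called without both cows. That pair held the lowest 4 h and the highest 12 h level of NLRC5, so its removal lowers the NLRC5 value by construction. The cause of the other shifts was not tested. Among all log2 fold changes recomputed, 1550 kept their side of the threshold and their sign, 153 lost their call and 13 gained one. No paired analysis was possible because each cow gave 1 library in 1 group. NLRC5 and CIITA rest on few counts (67 at the least, for CIITA), and 4 cows per group limit every comparison.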
